A study of Homo sapiens with 4 samples.

Results

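The kinetochore is the protein assembly that joins each chromosome to the microtubules of the mitotic spindle, and the spindle checkpoint is the signal it sends until all chromosomes are attached. A set of 39 genes for these structures was followed in H929 cells after knockdown of ILF2. The genes were chosen by name from the known subunits of the kinetochore, its loading factors and the checkpoint, and all 39 were found in the count tables by a single Ensembl gene ID, of 63677 genes in all. H929 is an established line of human multiple myeloma, a cancer of plasma cells. The cells had been transduced with short hairpin RNA (shRNA) targeting ILF2, the gene of a subunit of a double-stranded RNA binding complex, or with non-silencing shRNA, and each group held 2 libraries of total RNA depleted of ribosomal RNA. All libraries came from this 1 line, and the time after transduction and the hairpin sequence are not given in the sources used here. The sources do not say if the ILF2 libraries share 1 hairpin, so the spread between them, and the p-values that rest on it, may include a difference between hairpins. The question was how the transcripts of these genes differed in cells in which ILF2 was reduced.

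The centromere is marked by nucleosomes that hold the histone variant CENP-A, which a chaperone and a licensing complex load anew in each cell cycle. On it sits the inner kinetochore, a network of CENP proteins present through the cell cycle, and in mitosis the outer kinetochore assembles, whose NDC80 complex grips microtubules. Unattached kinetochores recruit the BUB and MAD proteins and the kinase TTK, which hold back the anaphase-promoting complex, and many of these genes are transcribed mainly in G2 phase and mitosis. Malignant plasma cell lines divide continuously, so these transcripts are present in an unsynchronised culture in proportion to how many cells are in those phases and how much each makes.

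Many genes of late cell cycle phases carry a TTTGAA element or its variant TTTAAA near their start, known as the cell cycle genes homology region, with CCAAT boxes further upstream. RefSeq promoter windows (build GRCh38.p14) were found for 31 of the 39 genes, in 35 windows of 250 bases before the start, and were searched on both strands for the element TTTGAA, its variant TTTAAA, the box CCAAT and the E2F-type run TTTNNCGC. No entry was used for CENPH, CENPJ, CENPL, CENPM, KNL1, MIS18A, BUB3 and TTK. The last 120 bases before the start are shown for 4 genes that were lower with ILF2 shRNA and hold TTTGAA within this stretch, and for BUB1, a checkpoint gene that was not called. Capitals mark matches to any of the 4 motifs on either strand.
CENPA, chr2:26785936-26786055, plus strand: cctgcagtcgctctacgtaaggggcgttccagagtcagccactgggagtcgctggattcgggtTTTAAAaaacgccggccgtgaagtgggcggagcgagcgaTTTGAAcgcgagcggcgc
HJURP, chr2:233854536-233854655, minus strand: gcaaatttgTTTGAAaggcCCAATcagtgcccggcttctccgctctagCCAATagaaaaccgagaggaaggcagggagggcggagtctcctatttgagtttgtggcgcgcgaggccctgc
BUB1B, chr15:40160949-40161068, plus strand: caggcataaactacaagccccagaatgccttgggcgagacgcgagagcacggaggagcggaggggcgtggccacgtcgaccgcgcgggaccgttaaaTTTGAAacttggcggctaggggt
ZWINT, chr10:56361274-56361393, minus strand: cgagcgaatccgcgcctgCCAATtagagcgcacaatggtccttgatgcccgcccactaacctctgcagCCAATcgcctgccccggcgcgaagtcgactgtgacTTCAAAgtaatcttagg
BUB1, chr2:110678064-110678183, minus strand: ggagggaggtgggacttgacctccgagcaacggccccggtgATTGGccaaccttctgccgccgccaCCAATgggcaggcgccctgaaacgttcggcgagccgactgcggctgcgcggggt

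In CENPA the element began 18 bases before the start and in BUB1B 23 bases before it. In ZWINT it began 17 bases before the start, on the strand opposite to the one shown. In HJURP it lay further away, 111 bases before the start. Other genes went against this pairing of motif and call. CENPC, which was not called, held TTTGAA 90 bases before the start, and CENPE, also not called, held TTTAAA at 68 and 62 bases. CENPI, CENPO, NDC80, NUF2, SKA1 and ZWILCH were called lower, and their windows held none of the motifs searched. TTTGAA was present in 6 of 19 windows of genes called lower (31.6%) and in 1 of 16 windows of genes not called (6.25%). Of 16614 windows of genes tested 9.31% held it, and of all 34943 windows 13.4% did. The windows of genes tested cover 11482 symbols, while 19142 genes were tested, so many tested genes had no window. CCAAT was present in 12 of the 19 windows (63.2%) and 8 of the 16, and in 32.9% of windows of genes tested. TTTAAA was found in 10.5% of windows of genes called lower and 6.25% of the others, beside 8.11% of windows of genes tested. TTTNNCGC was in 15.8% and 18.8% of these windows, beside 8.10%. A match of letters is a description and no evidence of binding, and some genes, ZWINT among them, have more than 1 window. The windows of ZWINT overlap, so its single TTTGAA was counted in both, at 17 and 31 bases before their starts. In SPC25 the TTTGAA lay 247 bases before the start.

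The 4 libraries were first checked against their labels. The target gene itself, ILF2 (ENSG00000143621, GRCh37 chromosome 1, 153634512 to 153643524, minus strand), stood at 107 and 114 CPM in the ILF2 shRNA libraries, against 717 and 733 CPM in the non-silencing libraries (log2 fold change -2.71, SE 0.07, edgeR adjusted p = 9.2e-39). CPM is the fragment count of a gene relative to the TMM-scaled size of its library, so that libraries of unequal depth can be set side by side. Library totals ran from 63459322 to 71359863 counted fragments with ILF2 shRNA and from 71389341 to 72977082 with non-silencing shRNA. The share of fragments from mitochondrial genes was 0.516% and 0.463% with ILF2 shRNA and 0.351% and 0.307% with non-silencing shRNA. What this difference reflects was not tested, and a fit without mitochondrial genes is given in the last section. All 7 plasma cell markers examined (SDC1, TNFRSF17, IRF4, PRDM1, XBP1, CD38 and SLAMF7) were above 100 CPM in every library. Among markers of other cells, MS4A1, CD14, HBB and COL1A1 stayed at or under 0.153 CPM. Higher than these was CD3E, a T cell receptor subunit gene, with 16.1 and 17.0 CPM in the ILF2 shRNA libraries, against 8.22 and 7.49 CPM in the non-silencing libraries, and its part in the results was not tested.

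All 39 genes passed the filter on low counts, and all were more abundant than the median tested gene. Their exon-level totals were 154871 and 157464 fragments with ILF2 shRNA, or 0.244% and 0.221% of all counted fragments, against 198525 and 203708 fragments, or 0.272% and 0.285%, with non-silencing shRNA. By edgeR's quasi-likelihood test at an adjusted p under 0.05, 23 of the 39 genes were lower with ILF2 shRNA, where 10.1% of the 19142 genes tested were. No member was called higher by edgeR or DESeq2, or reached an unadjusted p under 0.05 in that direction (0 in each case), where 10.2% of all genes were higher. All 39 log2 fold changes were below 0, and their median was -0.23, beside a median of -0.0015 for all genes tested. Those of the 23 called genes ran from -0.52 to -0.22, so the mean level that remained lay between 69.9% and 86.1% of the non-silencing level. In 34 of the 39 genes both ILF2 shRNA libraries lay below both non-silencing libraries, as they did in 28.0% of all genes tested, while the groups did not overlap in either direction in 56.5%. The number called was 8 when non-silencing replicate 2 was left out and 16 when non-silencing replicate 1 was. It was 25 without ILF2 shRNA replicate 1 and 16 without ILF2 shRNA replicate 2. Over all genes, 1070 were lower without non-silencing replicate 2, 1073 without replicate 1 of that group, 1822 without ILF2 shRNA replicate 1 and 1489 without ILF2 shRNA replicate 2. In bulk RNA, fewer cells in G2 phase or mitosis and less RNA per cell cannot be told apart. Effects of a hairpin on other transcripts and differences between the transduced populations also cannot be told apart from ILF2 loss.

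**Figure D1:**
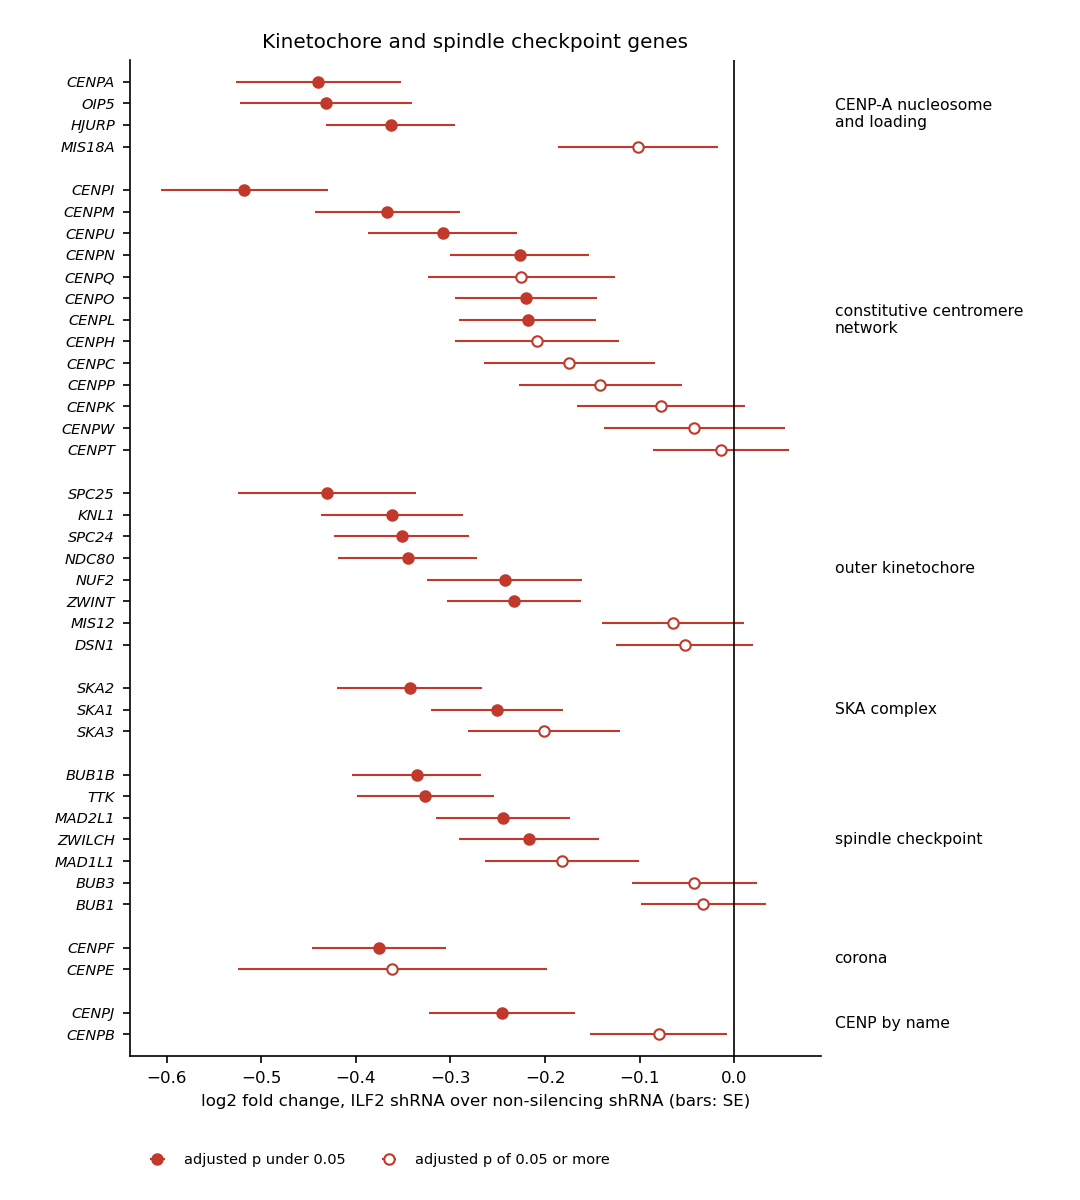
Log2 fold change of each of the 39 genes, ILF2 shRNA over non-silencing shRNA, from edgeR (points; bars are SE; 2 libraries per group), grouped by role. Filled points mark the 23 genes with an adjusted p under 0.05, and all 39 points lie left of 0.

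The genes for the CENP-A nucleosome and its loading fell by the largest typical amount among roles of at least 3 genes, with 3 of 4 called and a median log2 fold change of -0.40. CENPA, which encodes the centromeric histone itself, had 13.1 and 14.5 CPM in the ILF2 shRNA libraries, against 18.9 and 18.5 CPM in the non-silencing libraries. Its values did not overlap between the groups (log2 fold change -0.44, SE 0.09, edgeR adjusted p = 1.0e-04). Of its exon length, 6.96% is shared with SLC35F6 on the same strand, where the source of a fragment is uncertain. HJURP encodes the chaperone that delivers CENP-A to centromeres and was the most abundant of the 4 per exon length. It had 108 and 108 CPM with ILF2 shRNA, against 137 and 140.2 CPM with non-silencing shRNA, without overlap between the groups (log2 fold change -0.36, SE 0.07, edgeR adjusted p = 3.8e-05). OIP5, whose product is a subunit of the MIS18 licensing complex, had 11.03 and 11.01 CPM in the ILF2 shRNA libraries, against 15.7 and 14.1 CPM in the non-silencing libraries (log2 fold change -0.43, SE 0.09, edgeR adjusted p = 2.5e-04). An antisense gene, OIP5-AS1, overlaps 35.3% of the exon length of OIP5 on the other strand, which the strand-specific counts keep apart. It had 7716 and 7975 fragments in the ILF2 shRNA libraries and 10535 and 11027 fragments in the non-silencing libraries. MIS18A, the other licensing subunit measured, had 19.1 and 17.6 CPM in the ILF2 shRNA libraries, against 20.2 and 19.3 CPM in the non-silencing libraries. The groups did not overlap, but the difference was small and not called (log2 fold change -0.10, SE 0.08, edgeR adjusted p = 0.45). The calls of CENPA, HJURP and OIP5 held in every alternative setting and with each library left out.

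Among the 13 genes of the constitutive centromere network 6 were lower, and the median log2 fold change was -0.22. The network is built of smaller complexes, and these did not move alike in size. CENPI and CENPM, subunits of the CENP-HIKM complex that stabilises CENP-C at the centromere, fell most of the 13. CENPI had 14.1 and 12.6 CPM in the ILF2 shRNA libraries, against 18.6 and 19.7 CPM in the non-silencing libraries, a remaining level of 69.9% and the largest fall of all 39 genes (log2 fold change -0.52, SE 0.09, edgeR adjusted p = 6.8e-06). CENPM had 31.7 and 34.5 CPM with ILF2 shRNA, against 43.6 and 41.7 CPM with non-silencing shRNA (log2 fold change -0.37, SE 0.08, edgeR adjusted p = 2.1e-04). The other subunits, CENPH and CENPK, both lie on chromosome 5. The median log2 fold change over the 900 genes tested there was 0.15, while the medians of the other autosomes and of chromosome X lay between -0.04 and 0.01. The value for CENPH was -0.21 (adjusted p = 0.082), with -0.34 when ILF2 shRNA replicate 1 was left out (adjusted p = 0.0066) and -0.09 when ILF2 shRNA replicate 2 was (0.64). CENPK had a log2 fold change of -0.08 (adjusted p = 0.61), and its groups overlapped. Whether the shift of chromosome 5 bears on these values was not tested.

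CENPL and CENPN encode the pair that contacts the CENP-A nucleosome directly, and both were lower by similar amounts. The log2 fold change of CENPN was -0.23 (adjusted p = 0.02) and that of CENPL -0.22 (adjusted p = 0.024). CENPL lost its call without ILF2 shRNA replicate 1 (adjusted p = 0.057) or either non-silencing library (0.12 without replicate 1, 0.32 without replicate 2). CENPN lost it without ILF2 shRNA replicate 2 (0.073), non-silencing replicate 1 (0.073) or non-silencing replicate 2 (0.36). In the CENP-OPQU complex, which sits at the periphery of the network, CENPU was lowest with 44.8 and 38.3 CPM in the ILF2 shRNA libraries, against 48.0 and 54.9 CPM in the non-silencing libraries (log2 fold change -0.31, SE 0.08, edgeR adjusted p = 0.0028). Its groups did not overlap, and the call ended without ILF2 shRNA replicate 2 (log2 fold change -0.20, adjusted p = 0.093) or non-silencing replicate 2 (0.24). CENPO had -0.22 (adjusted p = 0.029), a call that ended without ILF2 shRNA replicate 1 (0.16), non-silencing replicate 1 (0.25) or non-silencing replicate 2 (0.17). CENPQ at -0.23 (adjusted p = 0.10) and CENPP at -0.14 (adjusted p = 0.27) were not called with all 4 libraries. CENPQ was called without ILF2 shRNA replicate 1 (-0.31, adjusted p = 0.043), and was -0.14 without ILF2 shRNA replicate 2 (0.50) and -0.15 without non-silencing replicate 2 (0.57).

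The members that link the network to the outer kinetochore were not called. CENPC, the scaffold that links CENP-A to the outer kinetochore, had a log2 fold change of -0.17 (adjusted p = 0.19), with overlapping groups. A copy named CENPCP1 held at most 182 fragments in a library. The value of CENPC was -0.34 without ILF2 shRNA replicate 1 (adjusted p = 0.0036) and -0.02 without ILF2 shRNA replicate 2 (0.94). It was -0.28 when non-silencing replicate 1 was left out (0.095) and -0.07 when replicate 2 of that group was (0.81). CENPT and CENPW encode a histone-fold pair, the second route by which the NDC80 complex is recruited. CENPT had 63.6 and 70.8 CPM in the ILF2 shRNA libraries, against 69.7 and 65.9 CPM in the non-silencing libraries, so that its 2 ILF2 shRNA values enclosed both non-silencing values (log2 fold change -0.01, SE 0.07, edgeR adjusted p = 0.93). The log2 fold change of CENPW was -0.04 (adjusted p = 0.82).

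In the outer kinetochore 6 of 8 genes were lower, with a median log2 fold change of -0.29, and the split followed the complexes. All 4 genes of the NDC80 complex, the main microtubule coupler, were called. SPC24, at its inner end, had 55.6 and 58.4 CPM in the ILF2 shRNA libraries, against 71.9 and 73.7 CPM in the non-silencing libraries (log2 fold change -0.35, SE 0.07, edgeR adjusted p = 1.3e-04). NDC80, whose product binds the microtubule, had 77.6 and 67.3 CPM with ILF2 shRNA, against 87.1 and 96.8 CPM with non-silencing shRNA (log2 fold change -0.35, SE 0.07, edgeR adjusted p = 2.8e-04). In neither gene did the groups overlap, and NDC80 lost its call without non-silencing replicate 2 (adjusted p = 0.081). SPC25 had the largest fall of the complex, -0.43 (adjusted p = 4.1e-04), and held its call in every setting. NUF2 had the smallest, -0.24 (adjusted p = 0.033). The call of NUF2 ended in DESeq2 (adjusted p = 0.40), without ILF2 shRNA replicate 2 (0.54; log2 fold change -0.08) and without non-silencing replicate 2 (0.34). Its log2 fold change was -0.42 when ILF2 shRNA replicate 1 was left out.

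KNL1, the scaffold on which BUB proteins assemble, had 96.8 and 83.7 CPM in the ILF2 shRNA libraries, against 108 and 124 CPM in the non-silencing libraries. The lower non-silencing value still lay above both ILF2 shRNA values (log2 fold change -0.36, SE 0.07, edgeR adjusted p = 2.5e-04), and the call ended without non-silencing replicate 2 (adjusted p = 0.10). ZWINT, which binds KNL1 and helps to recruit the ROD-ZW10-ZWILCH complex, had a log2 fold change of -0.23 (adjusted p = 0.012). It was not called without non-silencing replicate 1 (0.21) or non-silencing replicate 2 (0.11). DSN1 and MIS12 encode subunits of the MIS12 complex, the hub that joins inner and outer kinetochore, and neither was called. DSN1 had 51.2 and 49.3 CPM with ILF2 shRNA, against 51.9 and 52.3 CPM with non-silencing shRNA (log2 fold change -0.05, SE 0.07, edgeR adjusted p = 0.68). MIS12 had a log2 fold change of -0.06 (adjusted p = 0.62). In both genes the ILF2 shRNA values were the lower ones, by margins smaller than the test resolves. Of the other subunits of that complex, which are among the further pathway genes, NSL1 had -0.05 (adjusted p = 0.73) and PMF1 -0.16 (adjusted p = 0.13), and neither was called; both are named after their values were seen.

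The SKA complex follows the ends of spindle microtubules and strengthens the grip of NDC80, and 2 of its 3 genes were lower. SKA2 had 42.4 and 36.4 CPM in the ILF2 shRNA libraries, against 48.3 and 51.6 CPM in the non-silencing libraries (log2 fold change -0.34, SE 0.08, edgeR adjusted p = 5.7e-04), and its call ended without non-silencing replicate 2 (adjusted p = 0.054). A copy, SKA2P1, held at most 216 fragments in a library, so a small part of the fragments is uncertain. SKA1, the most abundant of the 3 per exon length, had 85.6 and 78.1 CPM with ILF2 shRNA, against 96.5 and 98.3 CPM with non-silencing shRNA (log2 fold change -0.25, SE 0.07, edgeR adjusted p = 0.0062). Its call ended without ILF2 shRNA replicate 2 (0.093), non-silencing replicate 1 (0.084) or non-silencing replicate 2 (0.14). SKA3 had 23.3 and 22.9 CPM in the ILF2 shRNA libraries, against 27.0 and 26.1 CPM in the non-silencing libraries and was not called (log2 fold change -0.20, SE 0.08, edgeR adjusted p = 0.068), though its groups did not overlap.

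Of the 7 checkpoint genes 4 were lower, with a median log2 fold change of -0.22. BUB1B encodes BUBR1, part of the complex that blocks the anaphase-promoting complex. It had 115 and 114 CPM in the ILF2 shRNA libraries, against 139 and 149 CPM in the non-silencing libraries (log2 fold change -0.34, SE 0.07, edgeR adjusted p = 1.5e-04), and lost its call without non-silencing replicate 2 (adjusted p = 0.057). A stretch of 240 bases, 5.36% of its exon length, is shared with PAK6, which had at most 18 fragments in a library. TTK, the kinase also called MPS1 that starts checkpoint signalling, had 66.2 and 59.6 CPM with ILF2 shRNA, against 75.1 and 82.6 CPM with non-silencing shRNA (log2 fold change -0.33, SE 0.07, edgeR adjusted p = 5.2e-04). The lower of its non-silencing values was above both ILF2 shRNA values, and the call ended without non-silencing replicate 2 (0.10). MAD2L1, which encodes the inhibitor MAD2 itself, had 73.6 and 66.7 CPM in the ILF2 shRNA libraries, against 82.4 and 83.7 CPM in the non-silencing libraries (log2 fold change -0.24, SE 0.07, edgeR adjusted p = 0.0086). Without ILF2 shRNA replicate 2 its adjusted p was 0.12, without non-silencing replicate 1 0.099 and without replicate 2 of that group 0.15. A processed copy named MAD2L1P1 held 301 and 264 fragments in the ILF2 shRNA libraries and 408 and 390 in the non-silencing libraries, so the split of fragments between the gene and its copy is uncertain.

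BUB1 and BUB3, the 2 most abundant of the 39 genes per exon length, were the least changed checkpoint genes. BUB1, the kinase that works with TTK at the kinetochore, had 304 and 289 CPM in the ILF2 shRNA libraries, against 295 and 312 CPM in the non-silencing libraries (log2 fold change -0.03, SE 0.07, edgeR adjusted p = 0.79). Its groups overlapped. BUB3, which carries both BUB1 and BUBR1 to KNL1, had a log2 fold change of -0.04 (adjusted p = 0.72). MAD1L1, the binding platform of MAD2, had one of -0.18 (adjusted p = 0.11) and was not called. ZWILCH, a subunit of the complex that brings dynein and MAD1 to kinetochores, had -0.22 (adjusted p = 0.029). This call missed the threshold in DESeq2 (adjusted p = 0.052), without ILF2 shRNA replicate 2 (0.34; log2 fold change -0.13), and when non-silencing replicate 1 (0.099) or replicate 2 (0.35) was left out.

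CENPF and CENPE encode very large coiled-coil proteins of the fibrous corona, the outermost layer of the kinetochore. CENPF had 227 and 193 CPM in the ILF2 shRNA libraries, against 259.5 and 286 CPM in the non-silencing libraries (log2 fold change -0.38, SE 0.07, edgeR adjusted p = 5.6e-05), without overlap, and held its call in every setting. CENPE, a kinesin motor that moves chromosomes to the spindle equator, had 90.8 and 69.3 CPM with ILF2 shRNA, against 93.2 and 112 CPM with non-silencing shRNA. The fold change was close to that of CENPF, but its replicates lay far apart in both groups and it was not called (log2 fold change -0.36, SE 0.16, edgeR adjusted p = 0.23). Fits that pair libraries aside, it was called in 3 settings, without ILF2 shRNA replicate 1 (adjusted p = 1.0e-10), without non-silencing replicate 1 (9.3e-05) and with no filter on low counts (8.3e-06). Its log2 fold change was -0.57 without ILF2 shRNA replicate 1, -0.18 without ILF2 shRNA replicate 2 and -0.22 without non-silencing replicate 2.

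A pair of genes carry a CENP name without belonging to these complexes. CENPJ encodes a centriole assembly protein and had 34.6 and 31.7 CPM in the ILF2 shRNA libraries, against 38.1 and 40.5 CPM in the non-silencing libraries (log2 fold change -0.25, SE 0.08, edgeR adjusted p = 0.016). Its adjusted p was 0.15 without ILF2 shRNA replicate 2, 0.064 without non-silencing replicate 1 and 0.27 without replicate 2 of that group. CENPB, which binds a sequence in centromeric satellite DNA and is the most GC-rich of the 39 genes, had 56.6 and 62.2 CPM with ILF2 shRNA, against 64.2 and 61.4 CPM with non-silencing shRNA. The groups overlapped and the gene was not called (log2 fold change -0.08, SE 0.07, edgeR adjusted p = 0.50).

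The genes differed widely in level. As CPM per kilobase of exon (FPKM), mean levels ran from 1.74 for CENPP to 65.8 for BUB3 with ILF2 shRNA, and from 1.92 to 67.8 for the same genes with non-silencing shRNA. Within the NDC80 complex, whose subunits assemble in equal number, SPC25 stood at 4.98 with ILF2 shRNA and 6.71 with non-silencing shRNA. The other subunits were higher per exon length, between 20.1 and 26.2 with ILF2 shRNA and between 25.5 and 31.0 with non-silencing shRNA. In CENP-HIKM the levels ran from 3.08 for CENPI to 18.6 for CENPM with ILF2 shRNA, and with non-silencing shRNA from 4.10 for CENPK to 24.0 for CENPM. CENPT had 12.1 with ILF2 shRNA and 12.2 with non-silencing shRNA, and CENPW had 11.9 with ILF2 shRNA and 12.2 with non-silencing shRNA. The exon length used here sums the exons of all annotated transcripts of a gene. Across the 39 genes the mean level on the log2 CPM scale and the log2 fold change had a Pearson r of 0.06 (Spearman -0.03). These points share the 4 libraries and their depth.

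**Figure D2:**
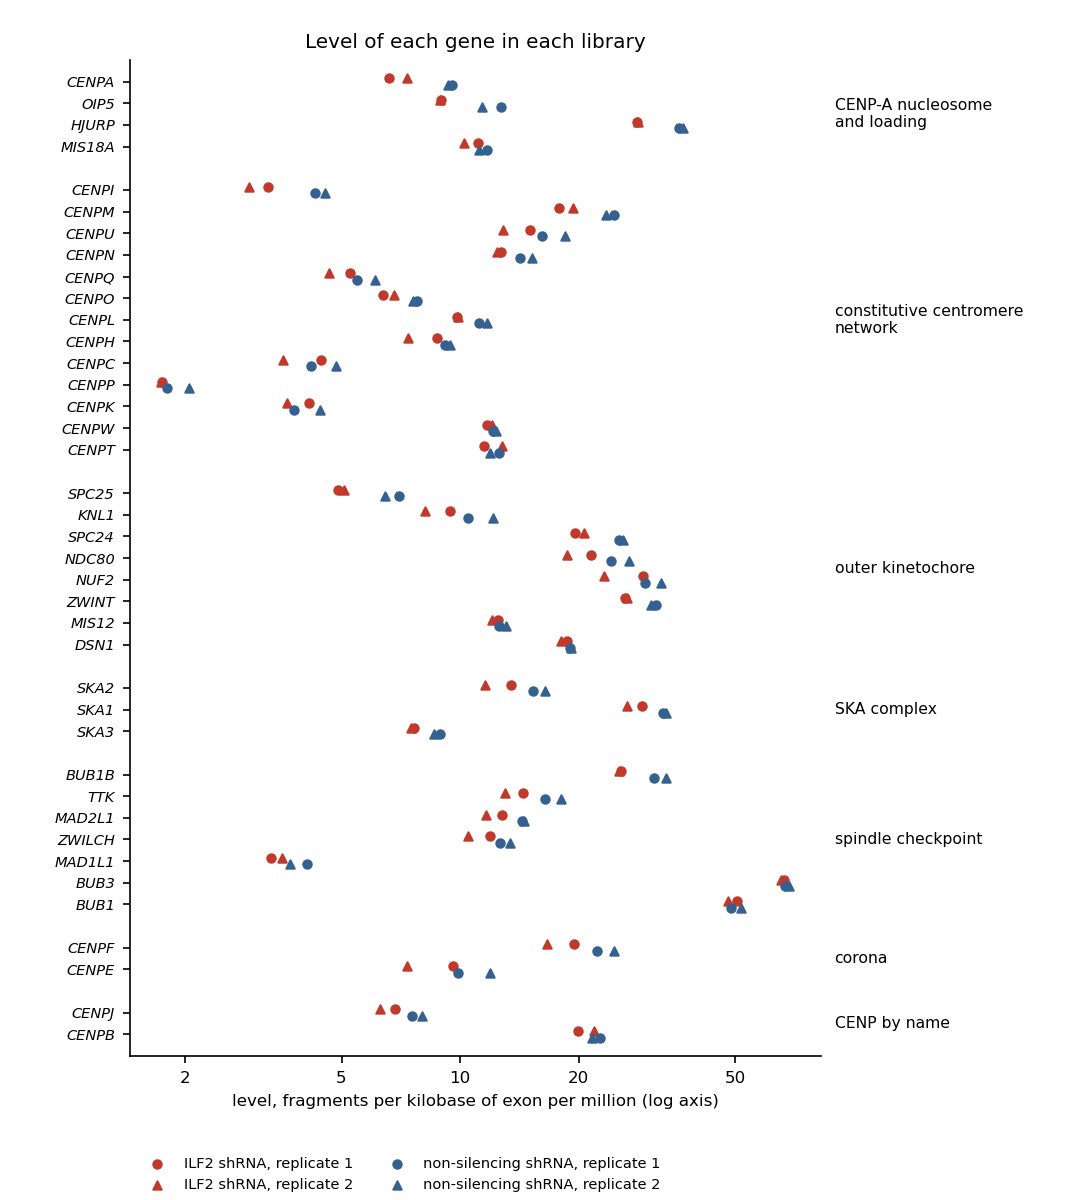
Level of each of the 39 genes in each of the 4 libraries, in FPKM (CPM per kilobase of exon) on a log axis, grouped by role. Circles are replicate 1 and triangles replicate 2, with ILF2 shRNA drawn above non-silencing shRNA; CENPI and OIP5 show separated groups, and CENPT and BUB1 show overlapping ones.

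The replicates of each group differed from each other along the base composition of the genes. The exons of the 39 genes held 33.9% (CENPQ) to 66.2% (CENPB) G and C, with a median of 41.7%, beside 48.1% for all genes tested. Of the 20 genes at or under that median, ILF2 shRNA replicate 2 was the lowest of the 4 libraries in 19 and non-silencing replicate 2 the highest in 19. Among the 19 genes above it, ILF2 shRNA replicate 1 was lowest in 11 and replicate 2 in 8, while each non-silencing library was highest in 9. CENPE, at 34.7% GC, was 0.39 higher in ILF2 shRNA replicate 1 than in replicate 2 on the log2 CPM scale, and 0.27 higher in non-silencing replicate 2 than in replicate 1 (a difference of -0.27 for replicate 1 minus 2). Across the 39 genes GC content and the difference of replicate 1 minus 2 had a Pearson r of -0.80 (Spearman -0.84) in the ILF2 shRNA libraries and 0.64 (Spearman 0.66) in the non-silencing libraries. Over the 13737 tested genes of at least 1 CPM these were -0.48 (-0.58) and 0.49 (0.55), so the same trend was present over all genes. The fold change between groups had a Pearson r of 0.12 (Spearman 0.0036) with GC content over the 39 genes, and 11 of the 20 genes with less GC and 12 of the 19 with more were called. When smooth trends on GC content and exon length were removed from each library, an alternative added after the data were seen, all 23 calls remained and 26 genes were lower, beside 2844 genes lower over the whole table, against 1925 without the correction.

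**Figure D3:**
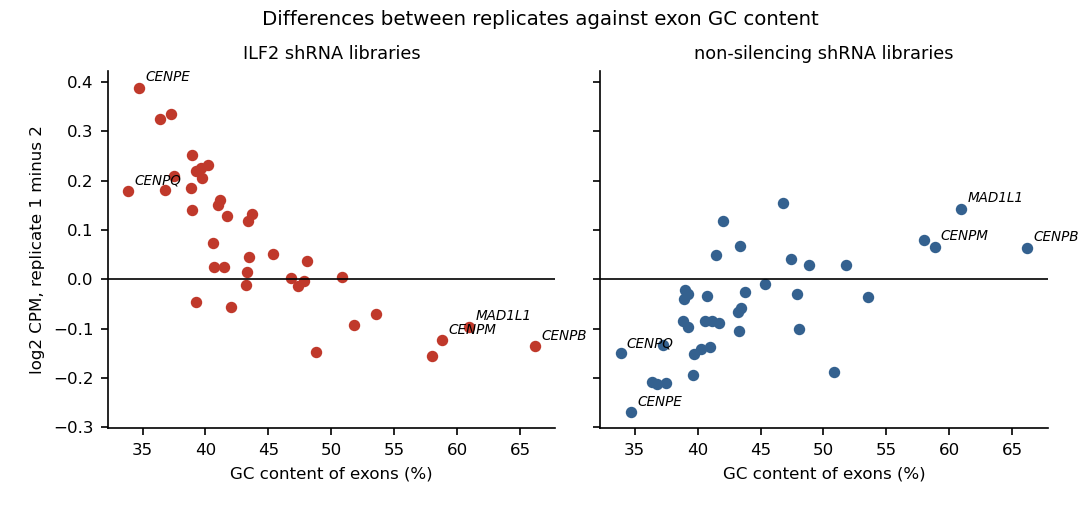
Difference between replicate 1 and replicate 2 on the log2 CPM scale (vertical axis) against the GC content of a gene's exons in per cent (horizontal axis) for the 39 genes, ILF2 shRNA libraries left and non-silencing libraries right. The points slope down in the ILF2 shRNA libraries and up in the non-silencing libraries, with CENPE at 0.39 and -0.27.

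The direction of the set did not hang on 1 library, while its size did in part. Without ILF2 shRNA replicate 1 the median log2 fold change of the 39 genes was -0.31, and without ILF2 shRNA replicate 2 it was -0.19. Leaving out non-silencing replicate 1 gave -0.28, and leaving out replicate 2 of that group gave -0.22. In these fits 37 or 38 of the 39 values were below 0. The 8 genes called in every alternative and with each library left out were CENPA, HJURP, OIP5, CENPI, CENPM, SPC24, SPC25 and CENPF.

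**Figure D4:**
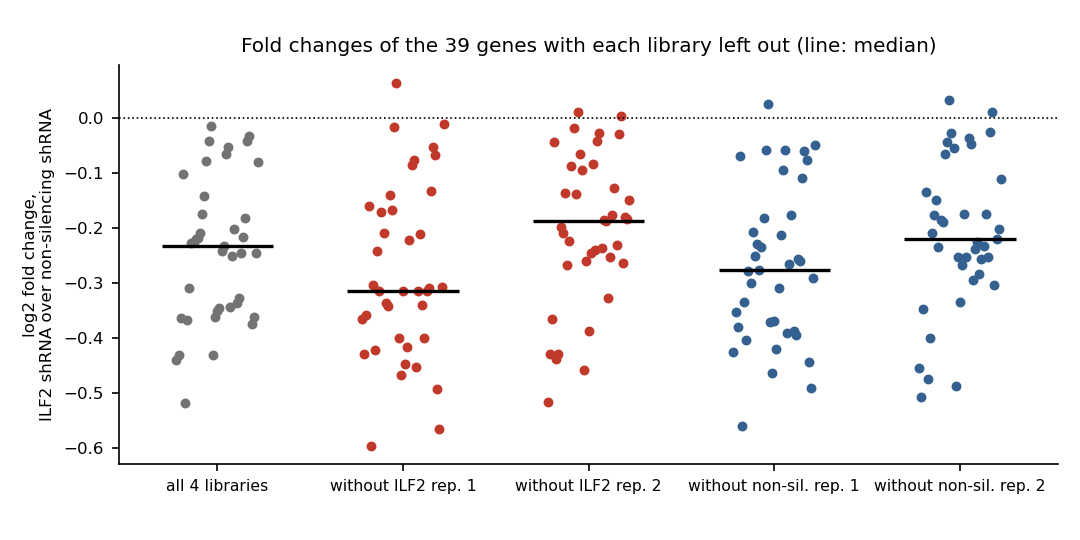
Log2 fold change of the 39 genes, ILF2 shRNA over non-silencing shRNA, with all 4 libraries and with each library left out in turn (horizontal spread is for display only; black lines are medians). The medians lie between -0.31 and -0.19, and at most 2 of the 39 points rise above 0 in any column.

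Other genes of the same pathway mostly had log2 fold changes below 0, though calls went in both directions. Values below 0 were found for 34 of the 42 such genes tested, and for 9612 of all 19142 genes tested. Of 43 further genes for kinetochore subunits, the chromosomal passenger complex, checkpoint partners and the anaphase-promoting complex, 42 were tested, 13 were lower and 2 higher, with a median log2 fold change of -0.11, where 10.1% of all genes tested were lower and 10.2% higher. USP44, a deubiquitinase gene of the checkpoint, had 1 fragment in a single library. Leaving out ILF2 shRNA replicate 1 gave 15 lower and 0 higher calls, beside 1822 lower and 1899 higher over all genes. Leaving out non-silencing replicate 1 gave 7 lower and 0 higher, beside 1073 lower and 1070 higher over all genes. Leaving out the other non-silencing library gave 6 lower and 1 higher, beside 1070 lower and 1029 higher over all genes. UBE2C, the ubiquitin-conjugating enzyme of the anaphase-promoting complex, had 109 and 118 CPM in the ILF2 shRNA libraries, against 152 and 145 CPM in the non-silencing libraries (log2 fold change -0.38, SE 0.07, edgeR adjusted p = 1.8e-05). KIF2C, a kinesin that dismantles microtubules at centromeres, had a log2 fold change of -0.32 (adjusted p = 2.9e-04). That of AURKB, the kinase of the chromosomal passenger complex, was -0.34 (adjusted p = 3.5e-04). HASPIN, which marks the histone site where that complex docks, had -0.34 (adjusted p = 3.9e-04). The 2 genes that were higher were CENPS and BOD1. CENPS, a histone-fold subunit of the inner network, had 4.21 and 3.74 CPM with ILF2 shRNA, against 2.75 and 3.05 CPM with non-silencing shRNA (log2 fold change 0.45, SE 0.13, edgeR adjusted p = 0.0095), but 62.7% of its exon length is shared with a read-through gene on the same strand. BOD1, a factor for chromosome orientation that lies on chromosome 5, had a log2 fold change of 0.27 (adjusted p = 0.02). Neither rise was called without ILF2 shRNA replicate 1 or non-silencing replicate 1.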

How the data were processed

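Counts of fragments per gene were deposited for 4 RNA-seq libraries, with groups and replicate numbers as the sample titles give them. Per the file headers, the authors made these raw counts with featureCounts 1.4.6-p2 on paired fragments, strand setting 2, summing exons by gene in the Ensembl annotation of GRCh37. STAR 2.3.0 is named in the submitters' processing notes, beside SAMtools 0.1.19, while the design text names another aligner. How fragments with several mapping places or genes were treated is not recorded; the program leaves them out unless told otherwise, which lowers counts of genes with close copies. The exon length column, also deposited, was used only for levels per kilobase. Of 63677 genes, 55665 were matched by Ensembl ID and 43631 had a symbol.

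Counts were tested in edgeR 4.0.16 (R 4.3.3) with TMM factors (0.970 to 1.02), the filterByExpr filter (minimum count 10), robust dispersions and the quasi-likelihood test (two-sided). Group was the sole model term, and p-values were adjusted by Benjamini-Hochberg over all 19142 genes that passed. The threshold was an adjusted p of 0.05, and SE came from the F statistic. The fit has 2 residual degrees of freedom. The spread of each gene was moderated by that of all genes tested, with a median of 56.1 prior degrees of freedom. The submitters call the replicates independent, but separate transductions are not stated, so the p-values reflect no more than the spread among these 4 libraries, which may be technical. The procedure was tested on simulated data, with changes set in genes of at least 1 CPM. It called 44% of 50 genes changed by a log2 size of 0.3, and 84% of 50 changed by 0.5. Of 165 calls, 2 fell on unchanged genes. The measured data held far more calls, with 1925 genes lower and 1960 higher, so these shares need not carry over to the genes followed here. A gene that was not called may still differ, within what its SE allows.

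Alternatives were DESeq2 1.42.0, limma-voom 3.58.1, median-ratio and upper-quartile factors, no filter on low counts, at least 1 CPM in any 2 libraries, the replicate number as a block, each library left out, mitochondrial and the 20 most abundant genes left out, and chromosome 5 left out. A crossed pairing and a correction for exon GC content and length (mgcv 1.9.3, GRCh37 sequence) were added after seeing the data. The 39 genes, their roles, the 43 further pathway genes and the markers were chosen from general knowledge with earlier results of these data known. All 39 genes are named; values in every library are given for up to 3 genes of each role with the smallest adjusted p and for the least changed gene of each role, and up to 4 further pathway genes are named in each direction. A marker gene that was examined is not reported here.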

Additional observations from a re-analysis of the deposited data

How the results depend on the processing

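The 39 genes had 0 calls higher with ILF2 shRNA in every one of the 15 alternatives, and 37 to 39 of their fold changes were below 0 (of 37 genes without chromosome 5). With the replicate number as a block 15 members were lower, and the further pathway genes had 7 falls and 1 rise, with 1297 genes of the whole table lower and 1291 higher. CENPE was called there (edgeR adjusted p = 0.0042), while 14 of the 23 calls remained. The 9 calls lost were those of CENPL, CENPN, CENPO, ZWINT, NUF2 (0.079), SKA1, MAD2L1, ZWILCH and CENPJ. The gene passages above leave these losses out. The replicate numbers share no stated source; same-numbered libraries deviated in opposite directions (correlation -0.23 over 13737 genes), and a crossed pairing gave 29 lower members and 20 lower pathway genes, with 2857 genes lower over the whole table. After the GC and length correction 20 pathway genes were lower, with 2844 genes of the whole table lower and 3035 higher. Without mitochondrial and the 20 most abundant genes all 23 calls among the members remained, with 1867 genes of the whole table lower and 2002 higher. DESeq2 left 1 rise among the pathway genes. Without chromosome 5 there was also 1, but BOD1 lies on that chromosome and was removed with it, so this drop was fixed in advance. In that fit 12 pathway genes were lower, with 1834 genes of the whole table lower and 1742 higher. With 1 library left out, lower members numbered 8 to 25, lower pathway genes 6 to 15 and higher ones 0 to 2. Over all genes, lower calls then numbered 1070 to 1822 and higher calls 1029 to 1899, and the median of the members ran from -0.31 to -0.19. The cause of these shifts, the smaller number of libraries included, was not tested. In these fits a lone library is assumed to vary like the other group. The signs turned only in genes near 0. With 1 library left out CENPK ran from -0.18 to 0.032, CENPT from -0.094 to 0.064 and BUB1 from -0.076 to 0.010. Values above 0 came for CENPK and BUB1 without either replicate 2, and for CENPT without either replicate 1 and after the correction (0.0030); the cause was not tested. Depth limits the least abundant members most, CENPQ and CENPW at 8.05 to 10.5 CPM.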
